A study of Mus musculus with 11 samples.

Results

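The tissue kallikreins Klk1b21, Klk1b22, Klk1b24 and Klk1b27 and 5 genes of the same cluster, Klk1b26, Klk1b5, Klk1b11, Klk1b3 and Klk1, were followed in mouse testis RNA. The first 4 were selected because their read counts were lower in mice lacking Irp2 than in wild-type (WT) mice, and the other 5 because they lie beside them. All 9 were present among the 24411 genes of the count table, and 8 passed the filter on low counts, with Klk1b11 left out at 3 reads over all samples. Polyadenylated mRNA of whole decapsulated testes was sequenced as paired-end reads of 50 bases, and all mice were 20 weeks old. WT animals were C57Bl/6J (n = 4). Irp1-/- animals (n = 4) lacked iron regulatory protein 1, encoded by Aco1, throughout the body and were kept on the same background with WT littermates. Irp2-/- animals (n = 3) lacked iron regulatory protein 2, encoded by Ireb2, throughout the body, and neither their origin nor their littermates are described in the sources used here. No treatment was given to any group. The labels do not say whether samples of one genotype came from different litters, so p-values measure the spread between these samples.

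Tissue kallikreins are secreted serine proteases. Klk1, the classical member, releases kinin from kininogen, and rodents carry many further copies of this gene, which mice name Klk1b. Klk1b3 and Klk1b4 encode the gamma and alpha subunits of the nerve growth factor complex of the salivary gland, and Klk1b22, Klk1b26 and Klk1b9 encode binding proteins of epidermal growth factor. In the testis, Klk1b21, Klk1b24 and Klk1b27 are known from Leydig cells, the androgen-producing cells between the seminiferous tubules. Irp1 and Irp2 bind iron-responsive elements in mRNAs of iron metabolism when iron is low.

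Total counts were 16358055 to 18257228 in WT, 15902473 to 22451417 in Irp1-/- and 18519415 to 22349732 in Irp2-/- testes. Levels are CPM, read counts relative to the library total, scaled by TMM, an edgeR factor for library composition that lay between 0.980 and 1.02 here, and 3 counts, taken as the detection floor, corresponded to 0.134 to 0.189 CPM. Fold changes come from edgeR's quasi-likelihood test with Benjamini-Hochberg adjustment over all genes tested. Ireb2 was at 62.1 ± 0.803 CPM (SD, n = 3) in Irp2-/- against 140 ± 5.91 CPM (SD, n = 4) in WT testes, and Aco1 at 8.60 ± 0.636 CPM in Irp1-/- against 11.8 ± 1.37 CPM in WT (SD, n = 4 each). Reads on both targeted genes were thus lower in the matching knockout but not absent, with adjusted p = 2.8e-13 for Ireb2 and 0.0158 for Aco1 in edgeR. Without Irp1-/- replicate 6 or WT replicate 2, 3 or 4, the adjusted p of Aco1 lay between 0.0520 and 0.0750.

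All 15 tissue kallikrein genes of the table lie on the plus strand of chromosome 7 of mm10 (GRCm38) in a stretch of 287 kb, by GENCODE M21. Klk1b27 (44052290 to 44056712), Klk1b21 (44102328 to 44106583), Klk1b22 (44112673 to 44116922) and Klk1b24 (44188236 to 44192455) occupy 140 kb of it, with Klk1b16 between Klk1b22 and Klk1b24 as the only other table gene. Neither Ireb2 nor Aco1 is on this chromosome. The 250 bases before the RefSeq start of each of the 4 genes, and of the nearby Klk1b26 whose reads differed little between genotypes, are shown because they show which stretches the selected genes share. Capitals mark stretches of 12 letters that stand in the windows of Klk1b27, Klk1b21 and Klk1b24 and in no other kallikrein window of the cluster. Overlapping stretches are joined into runs. Parts of a run can therefore also stand in other windows, as in that of Klk1b26. All are written 5′ to 3′ on the plus strand.

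The windows, each with its mm10 position, are as follows.
Klk1b26 (chr7:44012428-44012677): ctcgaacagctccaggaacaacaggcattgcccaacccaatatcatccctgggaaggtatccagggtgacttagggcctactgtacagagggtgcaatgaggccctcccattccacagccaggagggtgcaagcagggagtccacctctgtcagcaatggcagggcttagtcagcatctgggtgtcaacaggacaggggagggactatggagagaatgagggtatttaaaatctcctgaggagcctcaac
Klk1b27 (chr7:44052040-44052289): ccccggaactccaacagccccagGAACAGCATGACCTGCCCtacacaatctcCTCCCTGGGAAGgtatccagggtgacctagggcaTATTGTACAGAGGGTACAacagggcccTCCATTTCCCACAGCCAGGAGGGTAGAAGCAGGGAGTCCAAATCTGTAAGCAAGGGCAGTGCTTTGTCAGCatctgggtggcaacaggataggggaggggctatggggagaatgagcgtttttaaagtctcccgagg
Klk1b21 (chr7:44102042-44102291): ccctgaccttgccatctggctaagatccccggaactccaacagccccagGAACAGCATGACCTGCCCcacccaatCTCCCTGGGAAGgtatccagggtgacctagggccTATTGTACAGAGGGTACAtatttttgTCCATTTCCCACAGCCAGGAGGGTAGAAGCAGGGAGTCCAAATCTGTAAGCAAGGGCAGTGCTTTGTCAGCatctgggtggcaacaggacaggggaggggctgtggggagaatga
Klk1b22 (chr7:44112423-44112672): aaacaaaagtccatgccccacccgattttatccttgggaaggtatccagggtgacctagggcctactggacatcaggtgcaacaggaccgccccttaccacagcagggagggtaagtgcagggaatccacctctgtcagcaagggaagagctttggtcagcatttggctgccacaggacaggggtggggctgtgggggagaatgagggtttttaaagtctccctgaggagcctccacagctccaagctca
Klk1b24 (chr7:44187986-44188235): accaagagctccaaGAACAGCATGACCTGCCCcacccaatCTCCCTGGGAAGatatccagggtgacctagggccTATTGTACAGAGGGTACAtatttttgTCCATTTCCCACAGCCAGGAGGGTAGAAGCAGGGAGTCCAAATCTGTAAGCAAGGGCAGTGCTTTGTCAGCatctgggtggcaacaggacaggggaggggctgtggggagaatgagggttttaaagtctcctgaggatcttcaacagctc

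The 3 genes known from Leydig cells shared 4 such runs of 18, 12, 18 and 71 bases, together 119 of the 250 bases. The longest run began 115 bases before the start of Klk1b21, 137 before that of Klk1b27 and 150 before that of Klk1b24. Klk1b22, the fourth gene selected for low reads in Irp2-/- testes, held none of these runs in full, and neither did Klk1b26. Parts of the runs do stand in the window of Klk1b26, so not every marked base is particular to the 3 genes. Over the full RefSeq window of 250 bases before to 50 after the start, which 14 of the 15 cluster genes had, Klk1b21 and Klk1b24 were 97.7% identical, and the other pairs among Klk1b21, Klk1b24 and Klk1b27 89.7% and 92.8%. Pairs of these 3 with any other cluster gene ranged from 78.4% to 85.3%. Klk1b22 was nearest to Klk1b9, at 88.4%, and was 79.2% to 80.7% identical to the other selected genes. RefSeq and GENCODE place the starts of Klk1b21 and Klk1b26 at different bases.

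**Figure D1:**
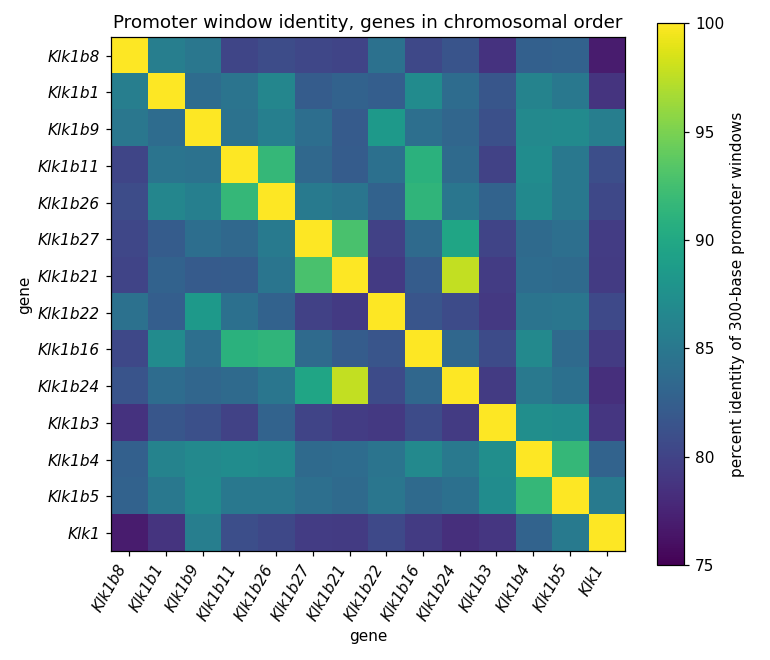
Percent identity (colour) of the RefSeq promoter windows of 14 tissue kallikrein genes, both axes in chromosomal order. Klk1b21, Klk1b24 and Klk1b27 form the bright off-diagonal cells at 89.7% to 97.7%, while Klk1b22 is not part of that group.

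Short motifs were searched on both strands of the same windows. CAAGGTCA, a binding motif of the steroidogenic factor Nr5a1, was found in Klk1b21 and Klk1, against 1.56% of all 32851 RefSeq windows. The shorter AGGTCA, which the former contains, was found in 11 of the 14 kallikrein windows and in all 4 selected genes, against 16.3% of all windows. AGAACA, one arm of the androgen response element, stood in Klk1b24 and Klk1b3 (19.0% of all windows). AGATAA, bound by zinc-finger factors such as Gata4, was in 0 of 14 windows and in 11.2% of all. TTTAAA, which resembles the TATA box, was in 13 of 14 against 13.2% of all. These matches describe letters, not bound sites, and none of the motifs was found in all 4 selected genes and in no other window.

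Klk1b21 had 6.71, 7.29, 12.3 and 7.56 CPM in the WT testes, 13.0, 9.11, 10.7 and 14.0 CPM in the Irp1-/- testes and 2.35, 2.15 and 2.43 CPM in the Irp2-/- testes, in replicate order. Every Irp2-/- sample lay below every other sample, and WT replicate 3 lay among the Irp1-/- samples. The means were 8.46 ± 2.58 (SD, n = 4), 11.7 ± 2.21 (SD, n = 4) and 2.31 ± 0.146 CPM (SD, n = 3), so that Irp2-/- testes held 27.3% of the WT level (log2 fold change -1.87, standard error 0.21). This difference chose the gene and is given without a test.

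Klk1b27 had 4.42, 4.86, 8.27 and 4.80 CPM in WT, 8.03, 6.40, 7.99 and 8.04 CPM in Irp1-/- and 2.26, 1.84 and 2.01 CPM in Irp2-/- testes. WT replicate 3 was again the highest WT sample, here above all Irp1-/- samples as well. The Irp2-/- mean of 2.04 ± 0.211 CPM (SD, n = 3) was 36.4% of the WT mean of 5.59 ± 1.80 CPM (SD, n = 4), a log2 fold change of -1.44 (standard error 0.21).

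Klk1b24 had 7.04, 6.29, 8.10 and 6.84 CPM in WT, 8.97, 7.30, 8.74 and 13.4 CPM in Irp1-/- and 3.41, 1.74 and 3.06 CPM in Irp2-/- testes. The Irp2-/- samples again lay below all others, and Irp1-/- replicate 7 stood high. With 2.74 ± 0.883 CPM (SD, n = 3) against 7.07 ± 0.758 CPM (SD, n = 4), Irp2-/- testes held 38.7% of the WT level (log2 fold change -1.35, standard error 0.17).

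Klk1b22, the weakest of the 4, had 1.34, 1.12, 1.26 and 0.883 CPM in WT, 1.94, 0.947, 2.05 and 3.20 CPM in Irp1-/- and 0.354, 0.153 and 0.317 CPM in Irp2-/- testes. The last 3 values rest on 8, 3 and 6 reads, so the middle one is at the detection floor. Its Irp2-/- mean of 0.275 ± 0.107 CPM (SD, n = 3) was 23.9% of the WT mean of 1.15 ± 0.202 CPM (SD, n = 4), with a log2 fold change of -2.02 (standard error 0.37).

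Summed, the 4 genes had 22.3 ± 5.12 CPM in WT (SD, n = 4), 30.9 ± 6.16 CPM in Irp1-/- (SD, n = 4) and 7.36 ± 1.31 CPM in Irp2-/- testes (SD, n = 3). For 4 of the 4 genes no Irp2-/- sample reached the lowest WT sample, where 4.74% of the 16154 genes tested were below WT in this way, 1.21% passed an adjusted p of 0.05 and 0.842% passed as lower, but this is the contrast that chose them. The least lowered of them, Klk1b24, stood at -1.35, and the tissue kallikrein just outside, Klk1b16, at -0.79. Their shares of the sum overlapped between WT and Irp2-/- samples for each gene. Klk1b21 made up 37.6% ± 2.74 in WT and 31.9% ± 4.30 in Irp2-/- testes, Klk1b24 32.3% ± 3.87 and 36.5% ± 6.05, Klk1b27 24.8% ± 2.12 and 28.0% ± 2.95, and Klk1b22 5.31% ± 1.25 and 3.63% ± 0.891 (SD, n = 4 and 3). In bulk RNA, fewer cells that carry a transcript and less transcript per cell cannot be told apart.

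**Figure D2:**
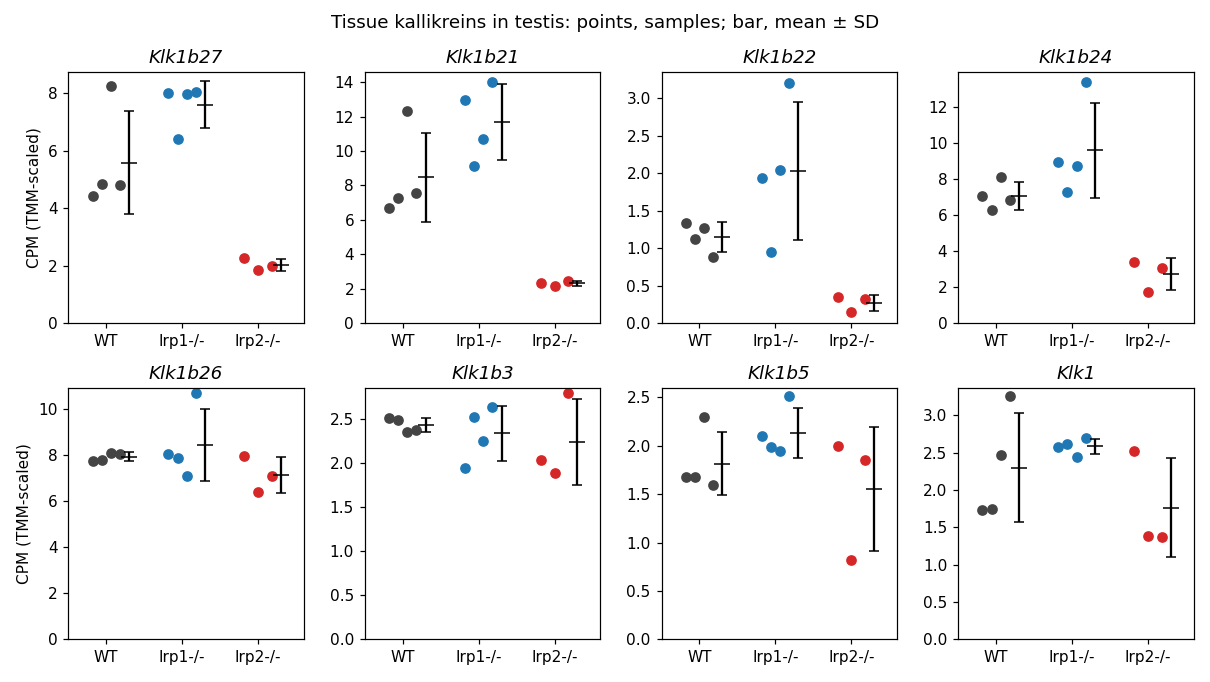
CPM (TMM-scaled) of 8 tissue kallikreins in the 4 WT, 4 Irp1-/- and 3 Irp2-/- samples. Points are samples in replicate order and bars the mean ± SD. In the upper row, the selected genes, the Irp2-/- points lie below all WT points, while in the lower row the genotypes overlap.

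Among the neighbours, Irp2-/- and WT samples overlapped for each of the 4 tested. Klk1b26, next to Klk1b27 on its other side, had 7.91 CPM in WT (7.71 to 8.10), 8.41 CPM in Irp1-/- (7.09 to 10.7) and 7.13 CPM in Irp2-/- testes (6.39 to 7.93), and the genotypes overlapped. Klk1b3, the table gene next after Klk1b24, had 2.43 CPM in WT (2.36 to 2.52), 2.34 CPM in Irp1-/- (1.94 to 2.64) and 2.24 CPM in Irp2-/- testes (1.89 to 2.80). For Klk1b5 the means were 1.81, 2.14 and 1.55 CPM, and for Klk1, the kinin-releasing enzyme, 2.30, 2.58 and 1.76 CPM, in the same order. Their log2 fold changes in Irp2-/- against WT testes were -0.14 for Klk1b26, -0.12 for Klk1b3, -0.21 for Klk1b5 and -0.37 for Klk1, with standard errors of 0.11, 0.19, 0.26 and 0.26. Single samples moved the values of Klk1 and Klk1b5 in either direction. Klk1 was at 2.53 CPM in Irp2-/- replicate 1 and at 1.38 and 1.37 in the others, and its log2 fold change was -0.74 without replicate 1 and -0.15 without WT replicate 4. Klk1b5 was at 0.818 CPM in Irp2-/- replicate 2 against 1.99 and 1.85, and its log2 fold change was 0.09 without replicate 2 and -0.45 without replicate 1. Klk1b11 had 1 read in each of 3 Irp1-/- samples and 0 in every other sample, which at the floor of 3 counts allows up to 0.183 CPM in any WT sample.

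The other tissue kallikreins of the cluster are those left after the lowest genes of this contrast had been selected, so a low number of calls among them was partly fixed beforehand, and each is given with its own test. Klk1b8, the most abundant, had 49.0 ± 2.91 CPM in WT (SD, n = 4) and 45.6 ± 2.96 CPM in Irp2-/- testes (SD, n = 3), which on the log2 scale is -0.10 (adjusted p = 0.696, edgeR). Klk1b9 had 10.9 CPM in WT and 9.78 CPM in Irp2-/- testes (log2 fold change -0.15, adjusted p = 0.746, edgeR). For the pseudogene Klk1b7-ps the log2 fold change was -0.03 (adjusted p = 0.974, edgeR). Klk1b16 had 0.615, 0.934, 1.15 and 1.05 CPM in WT and 0.709, 0.460 and 0.423 CPM in Irp2-/- testes, on 8 to 20 reads a sample. The groups overlapped in 1 sample, and the log2 fold change of -0.79 did not pass (standard error 0.34, adjusted p = 0.427, edgeR). Klk1b4, between Klk1b3 and Klk1b5, had 0.607 to 0.872 CPM in WT, 0.251 to 0.541 CPM in Irp1-/- and 0.423 to 0.576 CPM in Irp2-/- testes, on 4 to 14 reads. Both knockouts lay below all WT samples, as did 3.22% of genes in Irp1-/- testes, yet neither log2 fold change passed (-0.71 and -0.58, adjusted p = 0.370 and 0.664, edgeR). Klk1b1 was too low to test, with 1, 1, 2 and 0 reads in WT, 7, 6, 2 and 4 reads in Irp1-/- and 1, 0 and 1 reads in Irp2-/- testes. DESeq2 also called none of the 5 that were tested.

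**Figure D3:**
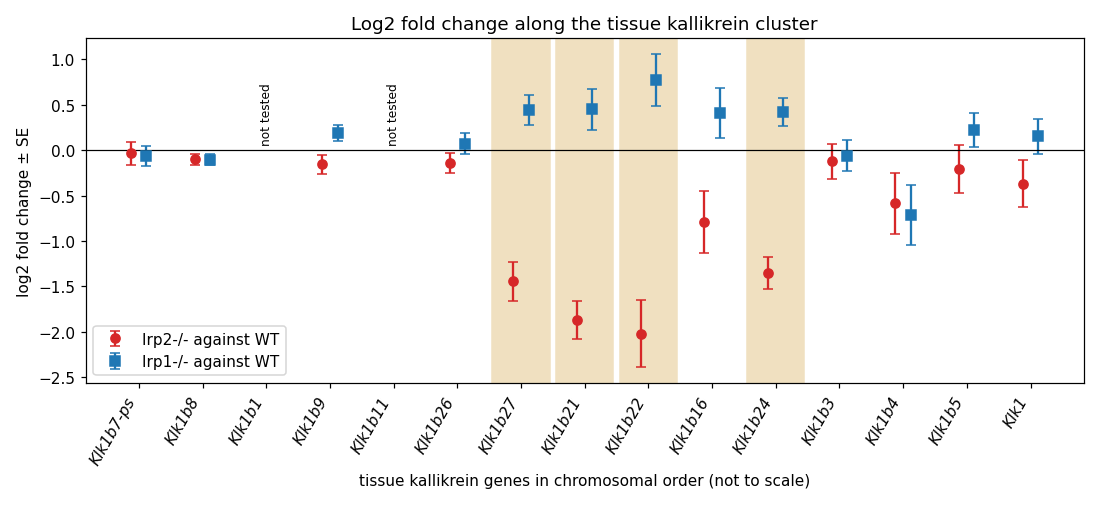
Log2 fold change against WT (± standard error) of 13 tested tissue kallikreins in chromosomal order, circles for Irp2-/- and squares for Irp1-/-. Shaded genes are the 4 selected ones, at -2.02 to -1.35 in Irp2-/- and 0.42 to 0.78 in Irp1-/-. Klk1b1 and Klk1b11 were not tested.

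The 4 selected genes made up 21.2% ± 3.92 of all reads on the cluster in WT (SD, n = 4), 27.4% ± 3.43 in Irp1-/- (SD, n = 4) and 8.91% ± 1.32 in Irp2-/- testes (SD, n = 3). Levels per kilobase used the longest GENCODE transcript of each gene. Klk1b26, Klk1b5 and Klk1b16 had 1386, 1391 and 1387 bases and the others 619 to 954, so the order depends on this choice. WT levels ran from Klk1b8 (57.1 CPM per kb) over Klk1b9 (12.6), Klk1b7-ps (9.83), Klk1b21 (9.71) and Klk1b24 (8.05) to Klk1b27 (6.28) and Klk1b26 (5.71). Below these came Klk1b3 (2.74), Klk1 (2.41), Klk1b22 (1.35) and Klk1b5 (1.30). From Klk1b7-ps to Klk1b26 each gene overlapped its neighbour in this order across WT samples, as did Klk1b3 with Klk1 and Klk1b22 with Klk1b5. In Irp2-/- testes Klk1b26 stood above the selected genes at 5.15 CPM per kb, followed by Klk1b24 (3.12), Klk1b21 (2.65), Klk1b3 (2.52) and Klk1b27 (2.29), and Klk1b22 (0.322) was below Klk1b16 (0.382).

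Because these genes are close copies, a read can fit more than one of them. Of all 50-base stretches, the read length, 29.1% in the Klk1b21 transcript and 33.9% in the Klk1b24 transcript occurred in a transcript of another gene. Of all such stretches of Klk1b21, 20.6% occurred in Klk1b24. For Klk1b27 and Klk1b22 the shares were 14.3% and 13.3%, and for Klk1b26 15.0%, most of them shared with Klk1b8. The values of Klk1b21 and Klk1b24 are therefore not fully separate measurements, and the handling of such reads is not stated in the sources used here. The share of 50-base stretches that occurred in a selected gene was 2.77% for Klk1b26, 5.83% for Klk1b3, 5.22% for Klk1b5 and 8.40% for Klk1. Among the other cluster genes it was 6.28% for Klk1b16 and ranged from 0% for Klk1b7-ps to 9.24% for Klk1b4.

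The comparison of Irp1-/- with WT testes did not choose the genes, though it shares the WT samples. The log2 fold changes were 0.45 for Klk1b21, 0.44 for Klk1b27, 0.42 for Klk1b24 and 0.78 for Klk1b22, with standard errors of 0.22, 0.17, 0.16 and 0.29. None passed in edgeR's test (adjusted p = 0.492, 0.274, 0.278 and 0.242), nor did any of the 4 neighbours tested (log2 fold changes -0.06 to 0.22, adjusted p = 0.700 to 0.929), so 0 of 8 members were called, against 1.02% of the 16002 genes tested and 0.581% called as higher. Unadjusted, 3 of the 8 had p under 0.05, namely Klk1b22, Klk1b24 and Klk1b27, against 12.1% of all genes. For Klk1b21, Klk1b24 and Klk1b27 all 4 Irp1-/- samples exceeded the WT mean, yet each overlapped WT through 1 high WT sample. WT replicate 3 decided this outcome for a pair of genes. Without it both Klk1b21 and Klk1b27 passed at 0.69 on the log2 scale (adjusted p = 0.00815 and 0.00504, edgeR). Without Irp1-/- replicate 2, Klk1b22 passed at 1.03 on the log2 scale (adjusted p = 0.0258, edgeR), and without Irp1-/- replicate 7 one of 0.50. Of the other cluster genes 0 of 5 passed, and 2 of them had an unadjusted p under 0.05, Klk1b9 at 0.19 (adjusted p = 0.389, edgeR) and Klk1b4.

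A pair of libraries carried the highest kallikrein values. Irp1-/- replicate 7, which had the lowest total count, was the highest Irp1-/- sample for 8 of the 8 members tested, and it was the highest for 27.2% of all genes and for 5 of 25 Leydig cell genes. WT replicate 3 was the highest WT sample for 5 of 8 members and for 16 of 25 Leydig cell genes, against 24.4% of all genes. The part of these libraries' composition in the kallikrein values was not tested.

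Between the knockouts, the Irp2-/- testes held 19.7% of the Irp1-/- level of Klk1b21, 26.7% for Klk1b27, 28.5% for Klk1b24 and 13.5% for Klk1b22 (log2 fold changes -2.32, -1.89, -1.78 and -2.81). No Irp2-/- sample reached any Irp1-/- sample for these 4 genes, where 7.89% of 16281 genes were lower in this way, and the Irp2-/- samples are those that chose the genes. The neighbours differed by -0.06 for Klk1b3, -0.22 for Klk1b26, -0.44 for Klk1b5 and -0.53 for Klk1, with overlap for each. Without Irp2-/- replicate 2, Klk1b3 was at 0.05 and Klk1b5 at -0.14, and without Irp2-/- replicate 1 Klk1b5 was at -0.67 and Klk1 at -0.90. Among the other cluster genes, which were tested, Klk1b16 was lower in Irp2-/- than in Irp1-/- testes (0.530 against 1.26 CPM, log2 fold change -1.20, adjusted p = 0.0335, edgeR), where 4.69% of all genes passed and 2.92% as lower. This call was kept in 2 of the 7 fits without one sample and lost in DESeq2, with adjusted p up to 0.160. Klk1b9 stood at -0.34 on the log2 scale (adjusted p = 0.0557, edgeR), and without Irp2-/- replicate 1 it passed at -0.46 with adjusted p = 0.0157. Klk1b8, Klk1b7-ps and Klk1b4 had log2 fold changes of 0.0025, 0.03 and 0.13, none of which passed, and the sign of each depended on the samples fitted.

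Since 3 of the selected genes are known from Leydig cells, 25 genes of Leydig cell steroidogenesis and identity were read beside them. Their depth varied, from Hsd11b1 with 1 to 13 reads a sample, too few to test against WT, to Insl3 with 7360 to 11846 reads. Insl3, a Leydig cell hormone, had 484 to 519 CPM in WT and 376 to 490 CPM in Irp2-/- testes, and Hsd3b1, a dehydrogenase of steroid synthesis, 29.8 to 42.6 and 24.5 to 37.6 CPM. The summed level of the list was 1189 to 1606 CPM in WT, 1541 to 1754 CPM in Irp1-/- and 1208 to 1538 CPM in Irp2-/- testes. The median log2 fold change in Irp2-/- against WT was 0.03 over the 24 genes tested, against 0.0033 over all genes, with a range of -0.45 (Prlr, the prolactin receptor) to 0.47 (Cyp11a1, which starts steroid synthesis from cholesterol). By edgeR 0 of 24 passed, where 1.21% of all genes did. An unadjusted p under 0.05 was found for 2, Insl3 at -0.17 and Vcam1 at -0.29, where 9.42% of all genes had one. DESeq2 also called 0. Per sample, the sum of the 4 kallikreins was 1.33% to 1.86% of the Leydig list sum in WT, 1.35% to 2.49% in Irp1-/- and 0.487% to 0.599% in Irp2-/- testes. The Irp2-/- samples had few reads on the selected kallikreins, for which these were chosen, at Leydig list sums within the WT range. That sum rests largely on abundant genes, with Insl3 giving 497 of its mean 1380 CPM in WT. Cyp17a1 alone ranged from 91.8 to 238 CPM among WT samples. The number of Leydig cells was not measured, and its part in the kallikrein values was not tested.

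**Figure D4:**
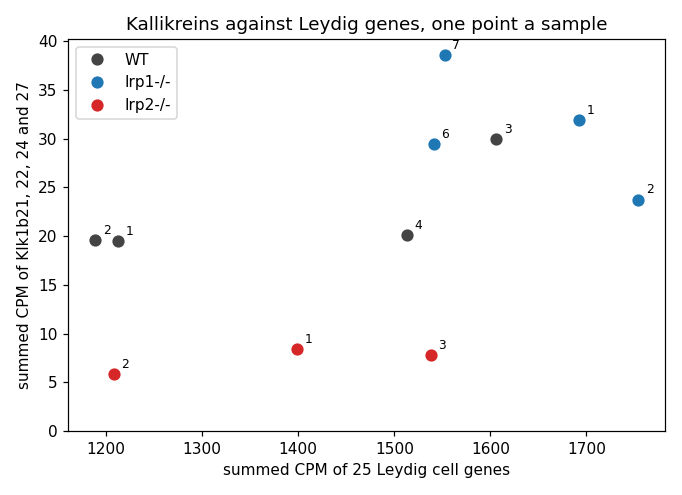
Summed CPM of Klk1b21, Klk1b22, Klk1b24 and Klk1b27 (vertical) against the summed CPM of 25 Leydig cell genes (horizontal), one point per sample with its replicate number. Irp2-/- samples lie at 5.88 to 8.37 CPM on the vertical axis, below the WT samples (19.5 to 29.9 CPM), at overlapping horizontal values.

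Against WT, Irp1-/- testes had a median of 0.18 over the Leydig list, against -0.0008 over all genes. Here 1 of 24 genes was called, against 1.02% of all genes. Of the 24, 21 had log2 fold changes above 0 and 7 an unadjusted p under 0.05, against 12.1% of all genes. Hsd17b3, which makes testosterone from androstenedione, rose by a log2 fold change of 0.37 (19.7 against 15.1 CPM, adjusted p = 0.0232, edgeR). That call was kept in 4 of the 8 fits without one sample and lost with all 11 samples in one fit. Between the knockouts 5 of 25 were lower in Irp2-/- testes, namely Hsd3b1 (-0.68), Vcam1 (-0.49), Fdxr (-0.31), Insl3 (-0.27) and Nr5a1 (-0.24), the last a transcription factor of steroidogenic cells, and 0 were higher (median -0.19), where 2.92% of all genes were called lower. Other lists had lower genes in this comparison too, namely Amh (-0.86), Fshr (-0.83), Trf (-0.37) and Cst9 (-0.19) of the 15 Sertoli cell genes and Rhox5 (-0.36) and Eppin (-0.33) of the 14 androgen-responsive genes tested. Of the 7 fits without one sample, 5 kept the call of Hsd3b1, 3 that of Nr5a1, 2 each those of Vcam1 and Fdxr and 1 that of Insl3. The spermatid list also had 1 of 12 genes called lower between the knockouts, and the submandibular gland and pancreas list 1 of 3. Calls of genes outside the Leydig list were not followed in these fits, except for the cluster kallikreins.

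**Figure D5:**
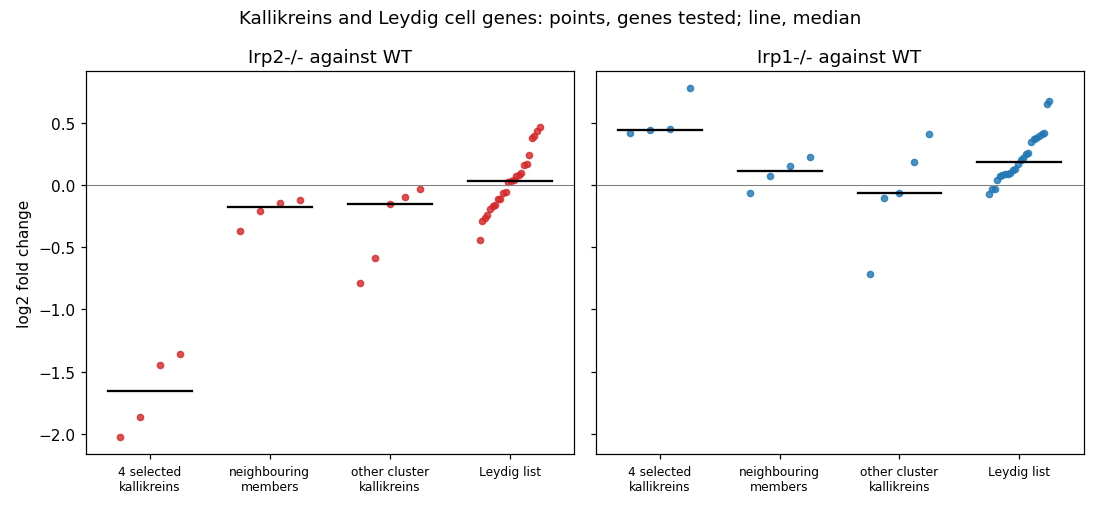
Log2 fold change of every tested gene (points) in 4 groups, with the group median (line), for Irp2-/- (left) and Irp1-/- (right) against WT. On the left the 4 selected kallikreins, chosen for this contrast, lie at -2.02 to -1.35, and the 24 Leydig genes between -0.45 and 0.47.

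Of 31 genes of the kallikrein-kinin system and kallikrein substrates, 24 were tested. In Irp2-/- against WT, 1 passed, Fn1, encoding fibronectin, which was higher at 28.0 against 22.4 CPM (log2 fold change 0.33, adjusted p = 0.0433, edgeR). The call was kept in 2 of 7 fits without one sample and lost in DESeq2 (adjusted p = 0.0584). Median and range of the list were 0.11 and -0.36 to 1.19. Bdkrb2, a kinin receptor, was at 0.494 CPM in WT, 0.514 in Irp1-/- and 0.583 in Irp2-/- testes, and Ace, which breaks down kinins and has a form specific to male germ cells, had 775 CPM in WT and 787 CPM in Irp2-/- testes (log2 fold change 0.02, adjusted p = 0.945, edgeR). Serpina5, a serpin that inhibits kallikreins, had 69.5 and 65.2 CPM (log2 fold change -0.09, adjusted p = 0.700, edgeR). Agt, the precursor of angiotensin, had log2 fold changes of 0.35 in Irp2-/- and 0.56 in Irp1-/- against WT, neither of which passed. In Irp1-/- against WT 0 of 24 passed. Of all genes, 1.21% passed in Irp2-/- and 1.02% in Irp1-/- against WT. At an unadjusted p under 0.05 the list had 6 genes in Irp2-/- and 5 in Irp1-/- testes, against 9.42% and 12.1% of all genes. The 12 kallikrein-related peptidases Klk4 to Klk15 were nearly absent, with 0 to 4 reads a sample, 2 of them (Klk5 and Klk7) at 0 throughout, and none could be tested.

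The androgen receptor and androgen-responsive genes had medians of -0.01 in Irp2-/- and 0.09 in Irp1-/- against WT, with 0 of 15 and 1 of 14 called, the latter being Eppin, a protease inhibitor of the male tract (0.32, adjusted p = 0.0350, edgeR). The call was kept in 3 of the 8 fits without one sample. At an unadjusted p under 0.05 there were 2 and 4, against 9.42% and 12.1% of all genes. For this list and those below, the shares of all genes called at an adjusted p under 0.05 were 1.21% in Irp2-/- and 1.02% in Irp1-/- testes. Sertoli cell genes had 0 of 15 called in Irp2-/- and 1 of 15 in Irp1-/- testes, Clu (0.16, adjusted p = 0.0473, edgeR). Clu was kept in 3 of the 8 fits without one sample and lost with all 11 samples in one fit. At an unadjusted p under 0.05 the Sertoli list had 1 gene in Irp2-/- and 6 in Irp1-/- testes, against the same shares. In Irp1-/- testes 13 of its 15 log2 fold changes were above 0, where the median over all genes was -0.0008. Of peritubular myoid and endothelial genes 1 of 12 passed in Irp2-/-, Vwf of endothelial cells (0.37, adjusted p = 0.0127, edgeR), and 0 of 12 in Irp1-/- testes. Vwf was lost without Irp2-/- replicate 2 or WT replicate 3 (adjusted p = 0.124 and 0.0511, edgeR). Of the spermatid genes 1 of 12 passed in Irp2-/- testes, Cabs1 (-0.23, adjusted p = 0.00533, edgeR), and 0 of 12 in Irp1-/-. At an unadjusted p under 0.05 the myoid and endothelial list had 3 genes in Irp2-/- and 0 in Irp1-/- testes, the spermatid list 2 and 1. In both comparisons edgeR called 0 of 11 macrophage genes, 0 of 14 spermatogonial and spermatocyte genes, 0 of the 4 or 5 tested blood genes and 0 of 2 tested epididymis genes. At an unadjusted p under 0.05 these lists had 2, 1, 0 and 1 genes in Irp2-/- and 2, 2, 0 and 0 genes in Irp1-/- testes, with the same shares of all genes as above. The summed spermatid list was 23075 to 24046 CPM in WT and 19714 to 23400 CPM in Irp2-/- testes, the macrophage list 75.8 to 96.0 CPM in WT and 86.5 to 97.7 CPM, and the blood list 39.9 to 57.2 and 32.3 to 53.7 CPM.

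Kallikreins are abundant in the submandibular gland and pancreas, so 16 markers of these tissues were included. Of these, 4 were at 0 in all samples and 2 could be tested in Irp2-/- against WT, where 0.842% of all genes were called lower. Amy1, an amylase, was lower, with 13.5 ± 1.59 CPM (SD, n = 3) against 19.2 ± 1.79 CPM in WT (SD, n = 4), or -0.51 on the log2 scale (adjusted p = 0.00380, edgeR, and 0.0519 without Irp2-/- replicate 2). Most of the list sum was Amy1. The sum was 20.1 to 23.7 CPM in WT, 21.8 to 23.1 CPM in Irp1-/- and 13.5 to 17.8 CPM in Irp2-/- testes. Of the other markers, Smgc, Dcpp3, Prss1 and Ctrb1 were those at 0, and Muc19 and Bpifa2 had 0 to 4 reads a sample. The part of the list sum in the kallikrein values was not tested.

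The flanking genes read were the 20 closest that passed the filter, 10 to either side, up to 487 kb before and 260 kb after the cluster. Of these, 0 passed in Irp2-/- against WT, with a median log2 fold change of -0.0054 and a range of -0.15 (Josd2) to 0.49 (Iglon5, adjusted p = 0.127, edgeR). DESeq2 also called 0 of them, and 1 of 20, Iglon5, had an unadjusted p under 0.05 (9.42% of all genes). In Irp1-/- against WT, 1 passed, Acpt, at -0.37 (adjusted p = 0.0482, edgeR), and this call was lost in each of the 8 fits without one sample. Of all genes, 1.21% passed in Irp2-/- and 1.02% in Irp1-/- against WT.

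The 4 genes varied together over the 11 samples, which their selection for low values in the same Irp2-/- samples had partly fixed beforehand. Pearson's r of log2 CPM between each and the sum of the other 3 was 0.959 to 0.981, and 0.661 to 0.794 after genotype means were removed, with reads shared as described. With the sum of all 4, Klk1b9 had r = 0.838, Klk1b16 0.834, Klk1b5 0.691, Klk1 0.660, Klk1b26 0.650, Klk1b3 0.242, Klk1b8 0.085, Klk1b4 -0.043 and Klk1b7-ps -0.061. After genotype means were removed, r with this sum was 0.784 for Klk1b5, 0.734 for Klk1b9 and 0.645 for Klk1b26. The rest of these genes ranged from -0.376 (Klk1b4) to 0.433 (Klk1b16). Within genotypes, Klk1b5 and Klk1b9 thus lay in the range of the selected genes, with Klk1b26 just below it. Over the Leydig list the median r was 0.255, and 0.419 with genotype means removed, against 0.0062 and -0.0051 over all genes. These are descriptions over samples of 3 genotypes, which share the genotype means.

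Among 16398 genes, those closest to the summed kallikreins were 2900092C05Rik (r = 0.974, and 0.785 with genotype means removed), Amy1 (0.964 and 0.741), Pcsk1 (0.954 and 0.537), Tceanc2 (0.951 and 0.320), 4930584F24Rik (0.949 and 0.623), Gm614 (0.948 and 0.363), Apoc1 (0.945 and 0.137), Tbx15 (0.941 and 0.804), 4933430H16Rik (0.941 and 0.257) and Adgrb1 (0.940 and 0.596), over 11 samples. Pcsk1, a convertase that cuts prohormones, had 19, 15, 18 and 10 reads in WT, 19, 15, 25 and 22 reads in Irp1-/- and 0, 0 and 1 reads in Irp2-/- testes. Apoc1, an apolipoprotein, had 9.67 ± 1.06 CPM in WT (SD, n = 4), 12.2 ± 0.513 CPM in Irp1-/- (SD, n = 4) and 3.65 ± 0.822 CPM in Irp2-/- testes (SD, n = 3). Its order of genotypes matched that of the kallikreins, and 2900092C05Rik had the same order at 38.0, 41.2 and 29.1 CPM. These genes were selected for likeness on these samples, so their differences between genotypes are not independent of the kallikrein values.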

How the data were processed

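Gene-level counts, whole numbers with no scaling applied, are what the authors deposited. By their notes reads went through bcl2fastq and nf-core RNA-seq with an mm10 annotation. The counting tool is not given in the sources used here, so the values may be rounded estimates. The table's headings hold an R at Irp1-/- replicate 6 and an L elsewhere, unexplained.

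Members and gene lists were chosen with earlier results of these data known. Genes were tested with edgeR 4.0.16 in R 4.3.3 (filterByExpr, TMM, robust quasi-likelihood test), in each comparison with its 2 genotypes, and adjusted over all genes. Standard errors are the absolute fold change divided by the root of F. No p is given for members in comparisons with Irp2-/- samples. Levels are CPM with TMM factors over all 11 samples. Likeness was computed on log2 CPM (prior count 2). Named genes were the 9 members, the other kallikreins, list genes with adjusted p under 0.05 against WT or otherwise up to 4 per list in list order, the 20 flanking genes, both targeted genes and the 10 most alike genes. Further list genes (Insl3, Prlr, Vcam1, Fdxr, Nr5a1, Ace, Serpina5, Agt) were picked after their values were seen, or for their role. Promoters came from RefSeq (GRCm38.p6) and transcripts and positions from GENCODE M21, with alignments in Biopython 1.88. The alternatives tried were DESeq2 1.42.0, RLE factors, a laxer and a stricter filter, one fit of all 11 samples, a replicate block, leaving out each sample and unscaled library sizes. No 2 libraries of a genotype agreed within sampling noise (chi-square per degree of freedom 2.00 to 7.05, 15 pairs). The tests were tried on simulated counts first. Floors cover counting error only.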

Additional observations from a re-analysis of the deposited data

Results flagged for a closer look

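In groups of 4, a sample stood far from the other 3 (Dixon's test, 95%) in 6 of the 31 groups checked over the kallikreins and their sum, where chance gives about 1.55. WT replicate 3 was high for Klk1b21 at 12.3 CPM (others 6.71 to 7.56), for Klk1b27 at 8.27 CPM (others 4.42 to 4.86), for Klk1b5 at 2.30 CPM (others 1.60 to 1.68) and for the sum of the 4 selected genes at 29.9 CPM (others 19.5 to 20.1). These 4 values are from one library and share reads, so they are not 4 separate signs. Irp1-/- replicate 2 was low for Klk1b27 at 6.40 CPM (others 7.99 to 8.04), and Irp1-/- replicate 7 was low for Klk1b4 at 0.251 CPM (others 0.499 to 0.541).

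All 3 Irp2-/- samples lay below and all 4 Irp1-/- samples above the WT mean for Klk1b21, Klk1b24 and Klk1b27, with log2 fold changes between the knockouts of -2.32, -1.78 and -1.89. This difference was not tested, since the Irp2-/- samples chose the genes. Among genes not chosen this way, the effects of the knockouts differed by edgeR's test of Irp2-/- against Irp1-/- samples for Klk1b16 (-1.20) and for the Leydig cell genes Hsd3b1 (-0.68), Vcam1 (-0.49), Fdxr (-0.31), Insl3 (-0.27) and Nr5a1 (-0.24). They are among 763 genes called in this comparison. The Sertoli cell, androgen-responsive, endothelial, kallikrein substrate, spermatid, and submandibular gland and pancreas lists held such genes as well. Of the 7 fits without one sample, 5 kept the call of Hsd3b1, 3 that of Nr5a1 and 1 that of Insl3. For each of Klk1b16, Vcam1 and Fdxr 2 fits kept it. DESeq2 lost Klk1b16 and Nr5a1, and Hsd3b1 and Vcam1 were lost without a count filter.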

How the results depend on the processing

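The 4 selected genes were lower in Irp2-/- than in WT and Irp1-/- testes under every alternative that gave a value. Their selection for low values in the same Irp2-/- samples had largely fixed this direction beforehand. Requiring 10 counts in every sample left Klk1b22 out. The median over the 4 between the knockouts, -2.11, ranged from -2.20 to -1.88. Scaling moved the median of all genes by less than 0.1. The counts of called genes of 196, 164 and 763 (Irp2-/- against WT, Irp1-/- against WT, Irp2-/- against Irp1-/-) became 118 to 223, 55 to 216 and 414 to 763 without one sample, lowest without Irp2-/- replicate 2, Irp1-/- replicate 1 and Irp2-/- replicate 2. Without one sample, 0 to 1 Leydig genes (0), 1 to 5 genes of the other lists (4) and 0 to 3 in Irp1-/- (2), and 0 flanking genes in Irp1-/- (1) were called. Without a count filter 1 Leydig gene passed. With DESeq2 0 flanking genes passed in Irp1-/-, and with all 11 samples in one fit 0, with 1 gene of the other lists. Replicate numbers did not pair the samples (correlations of deviations -0.01 to 0.08). With a replicate block, 2 Leydig genes passed in Irp2-/-, and in Irp1-/- 439 genes passed in all, 8 of the other lists and 0 flanking genes. There Klk1b21 and Klk1b27 passed, at 0.64 and 0.63 on the log2 scale (adjusted p = 0.000593 and 0.0136, edgeR). Small values changed sign. With the block, Klk1b7-ps was at 0.0026 in Irp2-/- against WT. Between the knockouts, Klk1b8 was at -0.0006 with DESeq2 and -0.0002 with all 11 samples. Without one sample, against WT, Klk1b7-ps ranged from -0.14 to 0.0434 in Irp2-/-, and Klk1b3 from -0.12 to 0.0158 and Klk1b26 from -0.0489 to 0.14 in Irp1-/-. Between the knockouts Klk1b8 ranged from -0.0503 to 0.0513, Klk1b7-ps from -0.0847 to 0.10, Klk1b4 from -0.0382 to 0.23 and Klk1b3 from -0.25 to 0.0452. Klk1b5 in Irp2-/- against WT ranged from -0.45 to 0.0898. The causes were not tested. Depth limits Klk1b22, Klk1b16 and Klk1b4, with 3 to 51 reads a sample.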
